A study of Mus musculus with 230 samples.

Results

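Dusp1, Dusp4, Dusp5, Dusp6, Dusp14, Sik1, Gem, Plk2 and Plk3 are kinases, phosphatases and a small GTPase that cells induce after stimulation and that act back on the signal that induced them. These 9 genes were taken by name from the 43346 genes of a count table, and all 9 were found. Every member had reads in all 230 libraries, the smallest count being 9 reads, and every member passed the filter on low counts in each of the 6 brain regions.

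The table came from male C57BL/6J mice that self-administered cocaine or saline. RNA sequencing libraries were made from 6 regions: VTA (ventral tegmental area), which holds dopamine neurons, its targets NAc (nucleus accumbens) and CPu (caudate putamen, the dorsal striatum), and PFC (prefrontal cortex), BLA (basolateral amygdala) and vHipp (ventral hippocampus). One arm with a saline history (S24, 8 mice) and one with a cocaine history (C24, 8 mice) were sampled after 24 h of withdrawal without an injection. The other 4 arms were sampled after 30 d of withdrawal, 1 h after a single intraperitoneal injection, and their first letter gives the self-administered substance and the second the injected one: SS (8 mice), SC (8 mice), CS (6 mice) and CC (7 mice). All 45 mice were thus of 1 sex and 1 strain and had gone through self-administration, so that the saline arms are not untrained animals. Dose, session number, age and dissection were not given in the sources used here. A mouse gave up to 6 libraries, and a region had 3 to 8 libraries in an arm.

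Extracellular signals, synaptic activity and calcium entry switch on the mitogen-activated protein (MAP) kinases and the cyclic AMP pathway, and both lead to rapid transcription of immediate-early genes. Among the products are proteins that end or limit the signal: dual-specificity phosphatases remove the phosphates that activate MAP kinases, salt-inducible kinases restrain the coactivators of the transcription factor CREB, Gem limits voltage-gated calcium channels, and Plk2 weakens excitatory synapses that have been strongly active. In striatum and cortex, several of these genes are known as markers of recent neuronal activity.

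Promoter sequence is shown for 3 members because it holds the letters through which CREB and serum response factor, 2 activity-regulated transcription factors, are known to bind. In RefSeq (build GRCm38.p6), 6 of the 9 members matched an entry of a table of 32851 promoters, namely Dusp1, Dusp5, Dusp6, Dusp14, Plk2 and Plk3, and Dusp4, Sik1 and Gem did not. The 250 bases before the annotated start were searched on both strands. Capitals mark a full cyclic AMP response element (CRE, TGACGTCA) in Dusp1 (chr17:26508473-26508722, minus strand) and Plk2 (chr13:110394794-110395043, plus strand), and 2 adjoining CArG boxes in Dusp5 (chr19:53528895-53529144, plus strand).
Dusp1: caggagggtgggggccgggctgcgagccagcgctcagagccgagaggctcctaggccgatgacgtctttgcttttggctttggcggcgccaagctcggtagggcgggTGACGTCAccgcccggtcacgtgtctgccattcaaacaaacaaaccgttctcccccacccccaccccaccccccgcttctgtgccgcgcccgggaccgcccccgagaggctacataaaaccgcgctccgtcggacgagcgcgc
Plk2: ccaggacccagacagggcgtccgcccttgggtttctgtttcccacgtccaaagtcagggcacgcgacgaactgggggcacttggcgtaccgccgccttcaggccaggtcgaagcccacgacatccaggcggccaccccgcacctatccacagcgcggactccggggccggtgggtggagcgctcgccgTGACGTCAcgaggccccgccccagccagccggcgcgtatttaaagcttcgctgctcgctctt
Dusp5: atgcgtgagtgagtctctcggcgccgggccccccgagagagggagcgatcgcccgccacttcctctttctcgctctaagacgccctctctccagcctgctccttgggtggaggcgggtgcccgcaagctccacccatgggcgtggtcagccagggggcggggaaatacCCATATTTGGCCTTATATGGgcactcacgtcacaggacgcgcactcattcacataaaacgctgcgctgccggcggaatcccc
Counted from 1 at the first base printed, the CRE began at base 108 in Dusp1 and at base 189 in Plk2, and 1.55% of all promoters in the table held one within the same 250 bases. The CArG boxes of Dusp5 began at bases 169 and 179, and 1.47% of promoters held at least 1. The shorter core motif of the CRE (TGACG, which also lies within the full CRE) was in 17.8% of promoters. It stood apart from a full CRE in Dusp1 at base 60, in Dusp5 at base 196 and in Plk3 at bases 119 and 188 of the same window. An AP-1 site (TGANTCA) was in 6.75% of promoters and in none of these 6, and neither Dusp6 nor Dusp14 held any of the 4 motifs in this window. A match is a description of the letters and was not tested as a binding site.

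Total counts per library ran from 11866570 to 42135683. The regions carried their defining markers, given in CPM (counts scaled to library size, with TMM adjustment over all libraries). The median of the dopamine receptor gene Drd1 was 420.4 CPM in CPu and 266.5 in NAc. That of the dopamine transporter gene Slc6a3 was 1600 CPM in VTA. For the glutamate transporter gene Slc17a7 it was 1506 CPM in PFC, 1365 in vHipp and 751.7 in BLA. Markers also varied within regions. Prox1, which marks dentate granule cells, ranged from 9.727 to 217 CPM in vHipp. Slc6a3 reached 158.6 CPM in 1 vHipp and 61.91 CPM in 1 NAc library, and Slc17a7 reached 556.2 CPM in 1 NAc library. In BLA the striatal gene Ppp1r1b ranged from 34.45 to 821.5 CPM and Drd1 from 13.83 to 124 CPM. Ppp1r1b ranged from 44.14 to 340.3 CPM in PFC. The part of this spread in the members' levels and calls in BLA and PFC was not tested. A few libraries, 9 of 230, stood apart from the others of their region, taken over all arms, in their correlation over all genes. Over 1 CPM of the predicted gene Gm20594, here scaled by total count alone, was carried by 21 libraries. All of these were of the SC arm except CPu of mouse-072 and vHipp of mouse-111, both CS. Counts of called genes were also made without each of these sets, and leaving out the Gm20594 set removes mostly SC libraries. The 30 d mice are numbered from mouse-011 to mouse-162 and the 24 h mice from mouse-171 to mouse-225, so in every comparison of 30 d with 24 h the time of withdrawal, the injection and any cohort difference cannot be told apart. These are bulk tissues, in which fewer cells of a type and less RNA per cell cannot be told apart either.

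Regional levels were compared first, in the saline mice at 24 h. Per kilobase of exon (RPKM, mean over the 6 regions), Plk2 was highest at 42.3, followed by Dusp14 at 20.0 and Dusp6 at 13.7. Dusp1 stood at 6.91, Plk3 at 5.24, Dusp5 at 4.70, Sik1 at 3.65 and Dusp4 at 2.92, and Gem was lowest at 0.702. All 9 members differed between regions in an F test with mouse as a block (limma, adjusted p under 0.05), as did 92.1% of all genes tested. Each member had 15 pairs of regions, 135 in all, of which 88 differed, where 55.5% of pairs did over all genes. Among the 45 pairs of neighbours in the members' orders 17 differed, a count for which no share of all genes was made. Neighbours are adjacent in an order taken from the same levels, so the 55.5% does not apply to them.

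**Figure D1:**
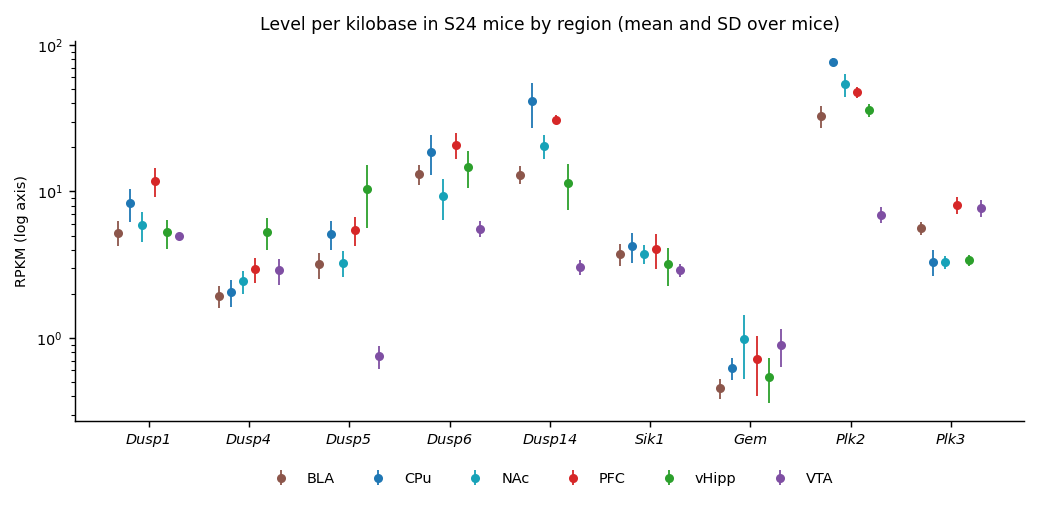
RPKM (log axis) of each member in the S24 mice of each region; points are means and bars the SD over 6 to 8 mice. Dusp5, Dusp14 and Plk2 sit far lower in VTA than elsewhere, whereas the 6 points of Sik1 lie close together.

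A steep order with VTA at its foot was seen in 3 members. Plk2 (chr13:110395046-110400844), a polo-like kinase of neurons, stood in S24 mice at 344 ± 22 CPM in CPu (SD, n = 8), 242 ± 44 in NAc (n = 8), 214.1 ± 18 in PFC (n = 7), 160.7 ± 16 in vHipp (n = 7), 146 ± 25 in BLA (n = 7) and 31.2 ± 3.8 in VTA (n = 6), an 11.03-fold span. CPu was above NAc (adjusted p = 4.38e-06), PFC above vHipp (adjusted p = 0.000608) and BLA above VTA (adjusted p = 1.59e-22), while NAc and PFC (adjusted p = 0.0974) and vHipp and BLA (adjusted p = 0.236) did not differ beyond their spread. Dusp14 (chr11:84048041-84069261), a small phosphatase that acts on MAP kinases and on proteins of inflammatory signalling, also had its highest level in CPu, at 80.2 ± 27.4 CPM. Below it came 60.1 ± 4.2 in PFC, 39.9 ± 7.6 in NAc, 25.4 ± 3.5 in BLA, 22.1 ± 7.7 in vHipp and 5.91 ± 0.71 in VTA, and among neighbours only BLA and vHipp did not differ (adjusted p = 0.185). Dusp5 (chr19:53529109-53542431), a nuclear phosphatase specific for ERK, was instead highest in vHipp.

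The level of Dusp5 was 25.7 ± 11.7 CPM in vHipp, 13.5 ± 3.1 in PFC, 12.7 ± 2.9 in CPu, 8.08 ± 1.68 in NAc, 7.85 ± 1.58 in BLA and 1.85 ± 0.33 in VTA. Its 13.9-fold span was the widest of the 9 members, and vHipp stood above PFC (adjusted p = 0.000447), CPu above NAc (adjusted p = 0.0186) and BLA above VTA (adjusted p = 2.55e-06). The vHipp libraries of Dusp5 were also the most spread, from 12.5 to 42.2 CPM in this arm alone. In the annotation 22.1% of its exon bases also lie under an antisense transcript, AC137853.2, and the strand setting of the counting was not given in the sources used here, so reads of that transcript cannot be told apart from those of Dusp5. For Plk3 and Dusp1 the shared part, with Tctex1d4 and Ergic1 on the opposite strand, was 3.32% and 0.332%.

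The remaining members had flatter orders. Dusp1 (chr17:26505590-26562128), the nuclear phosphatase of ERK, p38 and JNK that is itself an immediate-early gene, ran from 39.1 ± 8.7 CPM in PFC over 27.6 ± 7.0 in CPu to between 16.4 and 19.4 in the other 4 regions, whose neighbours did not differ (adjusted p from 0.404 to 0.967). Dusp6 (chr10:99263231-99267489), the cytoplasmic ERK phosphatase, ran from 65.4 ± 13.2 CPM in PFC to 17.4 ± 2.2 in VTA. Dusp4 (chr8:34807297-34819894), another nuclear MAP kinase phosphatase, was highest in vHipp at 14.4 ± 3.5 CPM, above PFC at 8.05 ± 1.55 (adjusted p = 2.12e-06), and lowest in BLA at 5.33 ± 0.92. Plk3 (chr4:117128655-117133963), a polo-like kinase of stress responses, had VTA near the top of its order. PFC at 20.5 ± 2.7 CPM and VTA at 19.6 ± 2.6 were highest (adjusted p = 0.858 between them) and NAc was lowest at 8.37 ± 0.85. Sik1 (chr17:31844250-31855804), the salt-inducible kinase, spanned 1.46-fold, from 21.8 ± 5.1 CPM in CPu to 14.9 ± 1.6 in VTA, and only 3 of its 15 pairs of regions differed. Gem (chr4:11704457-11714752), the GTPase that binds calcium channel subunits, lay between 0.958 ± 0.146 CPM in BLA and 2.06 ± 0.95 in NAc, with 4 of 15 pairs apart and no difference between neighbours (adjusted p from 0.134 to 0.954).

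The members were then followed from 24 h of withdrawal to 30 d with a saline injection, within a saline history (SS against S24) and within a cocaine history (CS against C24). For each mouse, log2 CPM minus the level of the region was averaged over the regions of that mouse, and the 45 values were compared with limma. The regions of a mouse were weighted equally, and mice lacked different regions. VTA libraries came from 3 of 6 CS mice and from 6 of 8 mice in each of S24, C24 and SS. Mouse values thus also depend on which regions a mouse had, and that part was not tested on its own. In SS mice 6 of the 9 members rose and none fell: Dusp1, Dusp4, Dusp6, Dusp14, Sik1 and Gem. Over all genes 14.8% rose in that comparison, and the median difference was 0.41 over the members and -0.01 over all genes (log2). In CS mice 8 of 9 rose, the same 6 with Dusp5 and Plk2 added, against 18% of all genes, with a median of 0.38 over the members. Plk3 passed the test in neither.

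**Figure D2:**
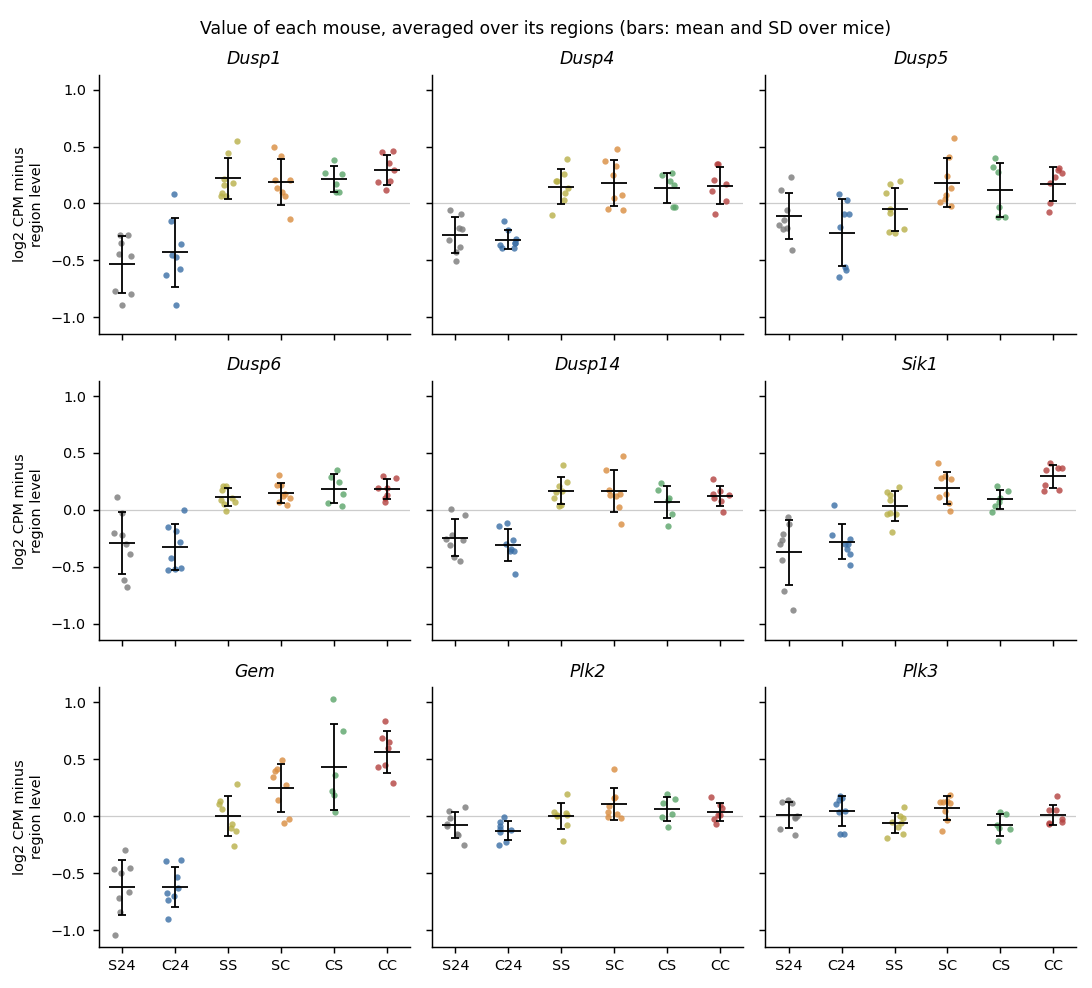
Each point is 1 mouse: log2 CPM minus the region level, averaged over that mouse's regions, by arm; bars give the mean and SD over 6 to 8 mice. For Dusp1 and Gem every SS mouse lies above every S24 mouse and every CS mouse above every C24 mouse, while the 6 arms of Plk3 overlap. The share of all genes with such separate values was not counted.

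For ranges of mouse values, the share of all genes with separate ranges was not counted, which holds for each member below. Dusp1 had separate ranges in both histories. In S24 mice its value ran from -0.90 to -0.28 with a median of -0.45, and in SS mice from 0.06 to 0.55 with a median of 0.17. No SS mouse reached down to an S24 mouse, and the difference was 0.75 ± 0.11 (log2 ± SE, limma adjusted p = 1.44e-06). In C24 mice it ran from -0.89 to 0.09, and all 6 CS mice lay above that, between 0.10 and 0.38, a difference of 0.64 ± 0.12 (adjusted p = 3.36e-05). Dusp6 differed by 0.40 ± 0.08 in the saline history (adjusted p = 0.000166) and by 0.51 ± 0.09 in the cocaine history (adjusted p = 1.18e-05), where all 6 CS mice were above all 8 C24 mice. Dusp4 differed by 0.43 ± 0.08 and 0.45 ± 0.08 (adjusted p = 3.1e-05 and 2.85e-05), and its CS and C24 mice did not overlap. For Dusp14 the differences were 0.41 ± 0.07 and 0.38 ± 0.08 (adjusted p = 2.52e-05 and 0.00018), with all 8 SS mice above all 8 S24 mice.

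Gem had the largest difference of the 9 in the cocaine history. Its mouse values ran from -1.04 to -0.30 in S24 and from -0.26 to 0.29 in SS, from -0.90 to -0.38 in C24 and from 0.04 to 1.03 in CS. Neither pair of arms overlapped, and the differences were 0.63 ± 0.12 (adjusted p = 9.35e-05) and 1.05 ± 0.13 (adjusted p = 5.3e-08). Sik1 differed by 0.41 ± 0.09 and 0.37 ± 0.09 (adjusted p = 0.000294 and 0.00149), with 7 of 8 SS mice above the highest S24 mouse and 4 of 6 CS mice above the highest C24 mouse. Dusp5 differed by 0.06 ± 0.11 in the saline history (adjusted p = 0.701) and by 0.38 ± 0.12 in the cocaine history (adjusted p = 0.00866), which became 0.34 with an adjusted p of 0.0522 when all libraries were fitted with mouse as a block. Plk2 differed by 0.08 ± 0.05 and 0.19 ± 0.06 (adjusted p = 0.291 and 0.00982), and Plk3 by -0.07 ± 0.05 and -0.12 ± 0.06 (adjusted p = 0.312 and 0.0848). Leaving out the C24 mouse-171 or mouse-183 brought the Plk3 value to -0.15 in both cases, with an adjusted p of 0.0285 or 0.0334.

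Whether the change from 24 h to 30 d itself differed between the histories was asked with the difference of the 2 differences, a comparison added after the values had been seen. None of the 9 members passed it with limma on mouse values, where 0% of all genes did, and 2 members and 6.82% of all genes had an unadjusted p under 0.05. For Gem the excess in the cocaine history was 0.42 ± 0.18 (adjusted p = 0.728) and for Dusp5 it was 0.32 ± 0.16 (adjusted p = 0.728). None of the 54 tests in single regions passed with edgeR either, with 0% of all genes passing and 3 member tests, against 5.34% of all gene tests, at an unadjusted p under 0.05. That Dusp5 and Plk2 passed in 1 history only is therefore not shown to be a difference between the histories.

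In single regions, fitted one at a time with edgeR, 19 of the 54 member tests rose in SS against S24 and none fell. By region these were 5 of 9 members in BLA (7.81% of all genes rose there), 3 in CPu (9.19%), 1 in NAc (1.91%), 6 in PFC (6.92%), 3 in vHipp (1.78%) and 1 in VTA (1.45%). In CS against C24 25 of 54 rose and none fell: 4 of 9 in BLA (4.63% of all genes), 6 in CPu (11.7%), 4 in NAc (4.36%), 8 in PFC (6.22%), 3 in vHipp (2.51%) and none in VTA (2.22%), where 4 members and 18.2% of all genes had an unadjusted p under 0.05 and the CS arm has 3 libraries. PFC held the most calls in both histories. Library ranges were apart, with 30 d higher, in 7 of the 54 tests in the saline history and in 9 of 54 in the cocaine history, as they were in 1.51% and 3.23% of all gene tests.

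**Figure D3:**
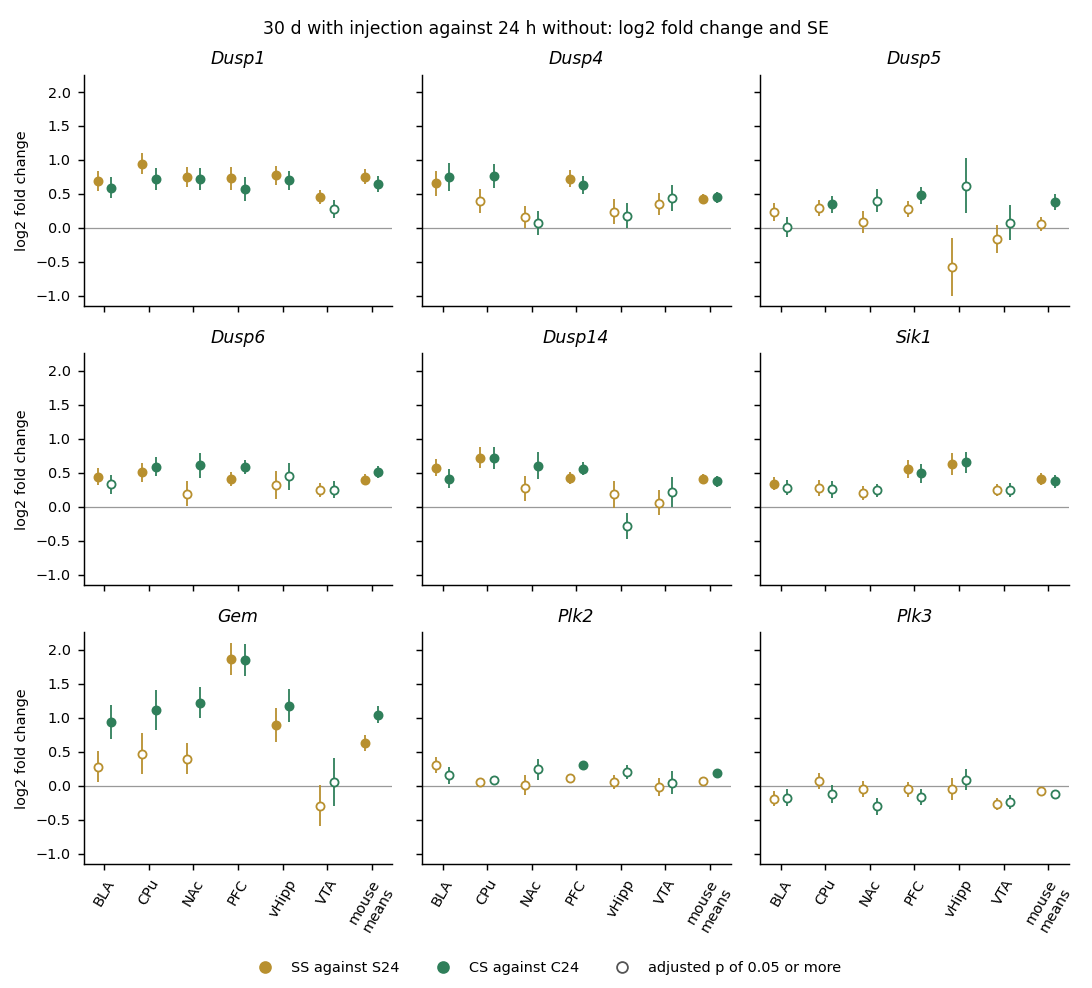
Log2 difference between 30 d with a saline injection and 24 h for each member, by region and over mouse values, in the saline history (SS against S24) and the cocaine history (CS against C24). Gem in PFC reaches 1.87 and 1.85, and Plk3 passed in no region of either history.

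Dusp1 passed in all 6 regions in the saline history. In CPu it ran from 19.1 to 36.3 CPM in S24 mice (median 29.1) and from 39.9 to 82.0 in SS mice (median 49.6). Every SS library exceeded every S24 library, and the difference was 0.94 ± 0.15 (log2, edgeR adjusted p = 2.98e-05). The PFC libraries ran from 26.9 to 50.3 CPM in S24 (median 39.5) and from 51.3 to 82.5 in SS (median 60.3). Levels in VTA were tight, from 15.3 to 17.5 CPM (median 16.5) in S24 and from 20.8 to 23.9 (median 23.0) in SS. Neither region had overlapping ranges, and the differences were 0.73 ± 0.17 (adjusted p = 0.0029) and 0.46 ± 0.10 (adjusted p = 0.0139). In NAc the SS libraries lay between 24.3 and 44.0 CPM against 13.5 to 26.7 in S24, a difference of 0.75 ± 0.15. The differences in vHipp (0.77 ± 0.15) and BLA (0.69 ± 0.14) lay in the same range, and Dusp1 did not pass a limma test of region by comparison (adjusted p = 0.632). That test used 1 correlation between libraries of a mouse for all genes, 0.0398, where that of Dusp1 was 0.460. Its result does not show that the change was equal over the regions.

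In the cocaine history Dusp1 passed in 5 regions. The NAc libraries of CS mice read 27.5, 28.7, 34.7, 47.5 and 50.5 CPM, all above the C24 range of 19.2 to 27.3 (median 21.02), a difference of 0.72 ± 0.16 (adjusted p = 0.00231). CPu differed by 0.72 ± 0.16, vHipp by 0.70 ± 0.14, BLA by 0.59 ± 0.16 and PFC by 0.57 ± 0.18 (adjusted p = 0.0289). Without the CS library of mouse-014, mouse-091 or mouse-151 the PFC value was still 0.54 to 0.55, with an adjusted p from 0.0564 to 0.0688. In VTA the CS libraries read 17.5, 21.7 and 22.6 CPM and the C24 libraries 12.1 to 23.8, and the difference of 0.28 ± 0.13 did not pass (adjusted p = 0.237). Without the libraries that stood apart, 1 of them a C24 library of VTA, it was 0.41 with an adjusted p of 0.0272.

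Dusp4 passed in BLA and PFC in the saline history and in BLA, CPu and PFC in the cocaine history. In BLA all SS libraries (7.04 to 10.05 CPM, median 8.95) were above all S24 libraries (3.95 to 6.87, median 5.22), a difference of 0.66 ± 0.19 (adjusted p = 0.0137). PFC differed by 0.73 ± 0.13 (adjusted p = 0.000111), from a median of 7.49 to 12.6 CPM. Among cocaine mice the CPu libraries did not overlap (6.80 to 9.66 against 2.36 to 6.18 CPM, 0.76 ± 0.18, adjusted p = 0.0017). The BLA libraries of CS mice read 6.89, 7.11, 7.38, 9.43 and 14.5 CPM, and without the highest, mouse-072, the difference of 0.75 ± 0.21 became 0.52 and did not pass (adjusted p = 0.13).

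For Dusp6 the saline history showed differences of 0.44 ± 0.12 in BLA, 0.51 ± 0.14 in CPu and 0.41 ± 0.10 in PFC, with overlapping ranges in each. In the cocaine history CPu libraries ran from 33.1 to 67.3 CPM in C24 (median 53.9) and from 68.0 to 102 in CS (median 81.0), and PFC libraries from 47.6 to 68.8 (median 59.6) against 73.9, 74.5, 88.7, 91.7 and 103. Both regions were without overlap, at 0.59 ± 0.14 (adjusted p = 0.00226) and 0.58 ± 0.10 (adjusted p = 0.000126). The NAc call of 0.61 ± 0.19 (adjusted p = 0.0311) was lost without the CS library of mouse-014 or mouse-151 (adjusted p = 0.0753 and 0.138).

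Dusp14 passed in BLA, CPu and PFC in the saline history and in NAc as well in the cocaine history. CPu went from a median of 72.3 CPM (55.5 to 145.33) in S24 to 120 (108 to 178) in SS, a difference of 0.72 ± 0.15 (adjusted p = 0.000785), and from 66.9 (54.8 to 95.7) in C24 to 108 (87.4 to 145.31) in CS, also 0.72 ± 0.16. A single S24 library, at 145.33 CPM against 82.8 for the next, reached into the SS range. BLA differed by 0.58 ± 0.12 in the saline history without overlap (21.5 to 30.66 against 30.71 to 42.3 CPM). PFC differed by 0.43 ± 0.09 and by 0.56 ± 0.09 (adjusted p = 5.78e-05), and in the latter the CS libraries at 67.7, 71.7, 74.9, 75.4 and 103 CPM were all above the C24 range of 48.9 to 61.5. Calls in NAc (0.61 ± 0.20, adjusted p = 0.0473) and BLA (0.42 ± 0.14, adjusted p = 0.0468) of cocaine mice lay close to the threshold. The NAc value without mouse-014, mouse-055 or mouse-151 of the CS arm was 0.46, 0.56 or 0.53, and none of these passed (adjusted p from 0.0992 to 0.173). The BLA value was 0.28 without mouse-072 (adjusted p = 0.238), while without mouse-091 or mouse-151 it stayed at 0.41 and 0.47 with an adjusted p of 0.0543 and 0.0546. In vHipp the value was -0.28 ± 0.20 (adjusted p = 0.453). A test of region by comparison gave an adjusted p of 0.0529 for Dusp14 in the cocaine history.

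Dusp5 passed in CPu (0.35 ± 0.12, adjusted p = 0.0342) and PFC (0.48 ± 0.13, adjusted p = 0.0117) of cocaine mice and nowhere in saline mice. Without the 21 libraries with Gm20594 the CPu value was 0.36 with an adjusted p of 0.0632. In vHipp its values were -0.58 ± 0.42 and 0.62 ± 0.40 in the 2 histories, and neither passed (adjusted p = 0.478 and 0.419).

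Gem in PFC had the largest difference of the 54 regional tests in each history. Its S24 libraries ran from 1.01 to 2.92 CPM (median 1.39) and its SS libraries from 3.26 to 9.42 (median 5.06), and its C24 libraries from 1.04 to 2.60 (median 1.83) against 3.76, 5.79, 7.31, 7.41 and 8.71 in CS. No library of a 30 d arm fell to the level of a 24 h arm, and SC (4.85 to 8.37) and CC (4.58 to 9.62) lay in the same high range. The differences were 1.87 ± 0.24 (adjusted p = 7.51e-07) and 1.85 ± 0.24 (adjusted p = 5.83e-07). In VTA, by contrast, S24 libraries ran from 1.20 to 2.74 CPM and SS libraries from 0.852 to 2.01, a value of -0.29 ± 0.30 (adjusted p = 0.699), and CS against C24 gave 0.06 ± 0.36. The change of Gem differed between regions in the saline history (F test of region by comparison, adjusted p = 0.00245), which 7.64% of all genes passed and which none of the other 8 members passed. In the cocaine history the same test gave an adjusted p of 0.484 for Gem, with 0.502% of all genes and none of the members passing.

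**Figure D4:**
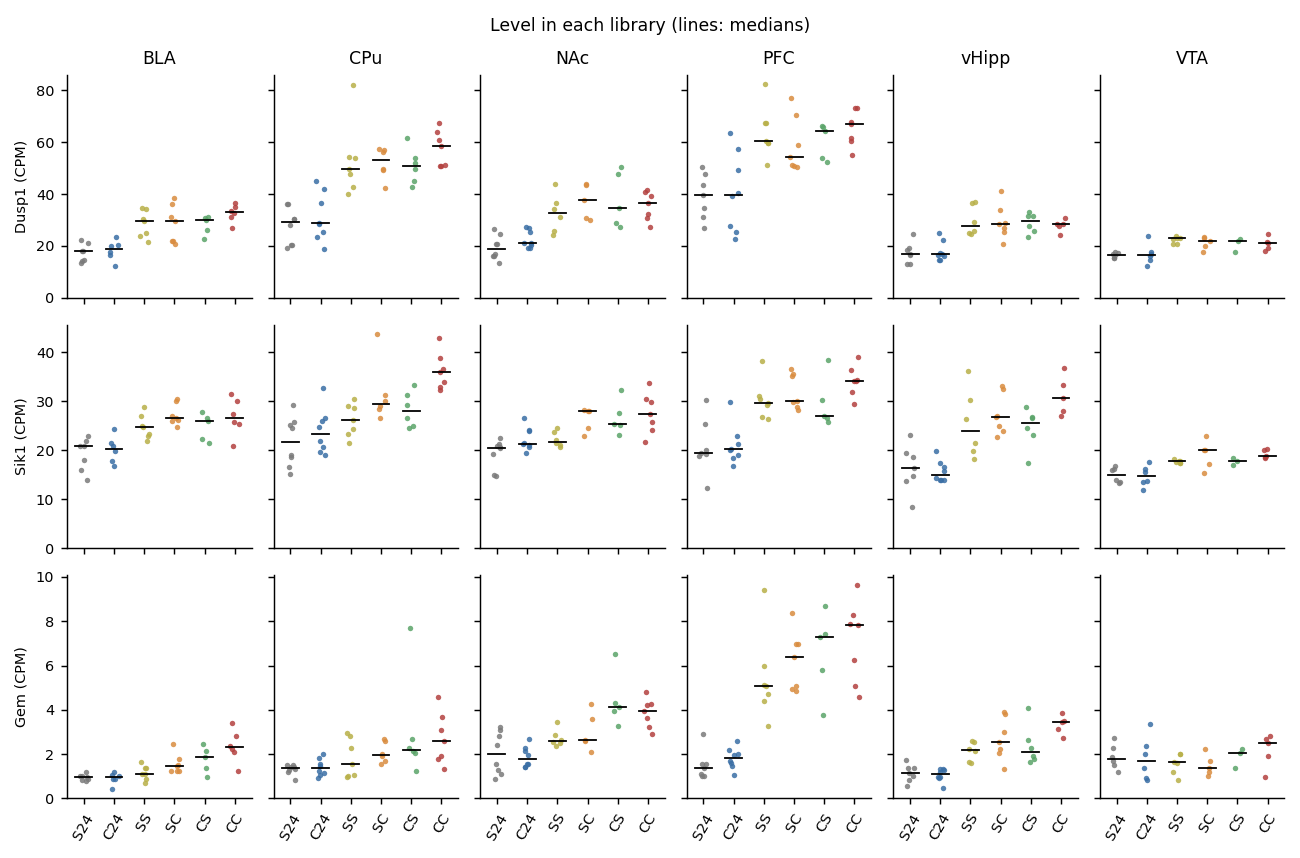
CPM of Dusp1, Sik1 and Gem in every library, by region (columns) and arm; lines are medians. Medians of Dusp1 in SS lie above those in S24 in each region, while in VTA the CS libraries of Dusp1 lie within the range of C24, Gem differs most in PFC, and 1 CS library of CPu stands alone at 7.69 CPM of Gem.

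Gem also passed in vHipp in both histories and, in cocaine mice, in BLA, CPu and NAc. The NAc libraries of CS mice read 3.26, 3.95, 4.14, 4.33 and 6.54 CPM, all above the C24 range of 1.40 to 2.68 (1.22 ± 0.23, adjusted p = 0.000485), while SS and S24 mice overlapped there (0.40 ± 0.22, adjusted p = 0.375). In vHipp the CS libraries (1.64 to 4.08 CPM) lay above the C24 libraries (0.491 to 1.32), at 1.18 ± 0.24 (adjusted p = 0.00215), and the saline history gave 0.90 ± 0.25 (adjusted p = 0.0392). The CPu value of 1.12 ± 0.30 (adjusted p = 0.00505) rested on 1 library, that of mouse-151 at 7.69 CPM, where the next read 2.70: without the libraries that stood apart it was 0.58 and did not pass (adjusted p = 0.0912). The BLA value of 0.94 ± 0.25 was 0.78 without mouse-151 and did not pass (adjusted p = 0.0767).

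Sik1 passed in PFC and vHipp in both histories and in BLA in the saline history. PFC went from a median of 19.4 CPM (12.3 to 30.2) in S24 to 29.7 (26.4 to 38.3) in SS, a difference of 0.56 ± 0.13 (adjusted p = 0.00297). In cocaine mice it went from 20.2 (16.7 to 29.8) to 25.8, 26.5, 26.9, 30.3 and 38.4 CPM, a difference of 0.49 ± 0.14 (adjusted p = 0.0138). That call was lost without mouse-091, the highest (0.39, adjusted p = 0.0683). The differences in vHipp were 0.64 ± 0.16 and 0.65 ± 0.16 (adjusted p = 0.0252 and 0.0111). In VTA all SS libraries (17.3 to 18.1 CPM) were above all S24 libraries (13.4 to 16.8), yet 0.25 ± 0.08 did not pass (adjusted p = 0.113).

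Of the polo-like kinases, Plk2 passed in PFC of cocaine mice alone, at 216, 231, 233, 245 and 267 CPM in CS against 170.96 to 223.4 in C24 (0.30 ± 0.06, adjusted p = 0.00132). Its BLA value in the saline history was 0.31 ± 0.11 with an adjusted p of 0.0554, which DESeq2 put at 0.0375. Plk3 passed nowhere, and its values ran from -0.30 ± 0.13 in NAc of cocaine mice to 0.09 ± 0.15 in vHipp.

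Prox1 and some of the members varied together in vHipp. Prox1 split the 39 vHipp libraries into 12 at 9.727 to 25.86 CPM and 27 at 51.21 to 217 CPM, and the 12 were spread unevenly over the arms: 3 of 7 in S24, 1 of 8 in C24, none of 6 in SS, 4 of 7 in SC, 3 of 6 in CS and 1 of 5 in CC. Dusp5 had a median of 41.8 CPM (24.4 to 62.0) in the 12 libraries and 17.2 CPM (6.14 to 44.5) in the 27, and Dusp14 went the other way, with 15.1 CPM (12.4 to 17.7) and 22.6 CPM (15.7 to 32.8). The relations below pool all arms, on a split read from the same libraries. The share of all genes that vary with Prox1 was not counted. Within the 27 libraries Dusp5 fell as Prox1 rose (Pearson r = -0.722, Spearman rho = -0.726, permutation p = 3e-05 for each, adjusted p = 0.00054 over 18 relations), and r was -0.744 without the 2 libraries farthest from the median. Dusp14 rose with Prox1 there (r = 0.606, rho = 0.615, permutation adjusted p = 0.0054 and 0.00837, r = 0.622 without the 2 farthest), and Plk3 fell (r = -0.608, rho = -0.582, permutation adjusted p = 0.0054 and 0.00984, r = -0.552 without the 2 farthest). Within the 12 libraries r was -0.423 for Dusp5 (rho = -0.462, permutation adjusted p = 0.278 and 0.238) and 0.199 for Dusp14 (rho = -0.049, permutation adjusted p = 0.718 and 0.904). Gem fell with Prox1 among the 12 by rank only (rho = -0.755, permutation adjusted p = 0.0275), since r = -0.659 had a permutation adjusted p of 0.0909 (r = -0.668 without the 2 farthest), and among the 27 its r was 0.0906 (rho = 0.0269, permutation adjusted p = 0.718 and 0.904).

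With Prox1 as a covariate in the vHipp fit, an alternative chosen after seeing the data, the slope over all 39 libraries with the arms in the fit was -0.51 ± 0.05 (log2 per doubling of Prox1 ± SE) for Dusp5 and 0.23 ± 0.03 for Dusp14. It was -0.04 ± 0.04 for Plk3, close to its SE, and 0.12 ± 0.06 for Gem, opposite in sign to the relation among the 12 libraries. The Dusp5 values became 0.15 ± 0.24 and 0.07 ± 0.23 in the 2 histories, and Dusp14 in cocaine mice became -0.01 ± 0.13. Dusp1 kept its call in the saline history (0.68 ± 0.14, adjusted p = 0.00566), whereas Sik1 (0.55 ± 0.16, adjusted p = 0.058) and Gem (0.76 ± 0.24, adjusted p = 0.0842) did not. In the cocaine history all 3 kept it, with Gem at 1.32 ± 0.23, Dusp1 at 0.80 ± 0.13 and Sik1 at 0.75 ± 0.16 (largest adjusted p = 0.00321).

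Genes of the surrounding pathways were compared over the same mouse values. These lists were put together with earlier results of these data known. Their counts stand beside the shares of all genes, of which 14.8% rose and 17.2% fell in SS against S24 and 18% rose and 18.9% fell in CS against C24. Of 20 immediate-early and other activity-induced genes, 17 rose and none fell in SS against S24 (median 0.72), and 19 rose and none fell in CS against C24 (median 0.73). Fos, a subunit of the AP-1 transcription factor, differed by 1.52 ± 0.19 and 1.48 ± 0.20. Fosb, Npas4, Egr2, Arc, Nr4a3, Homer1, Egr1, Ccn1, Btg2, Klf4, Nr4a1, Egr4, Junb, Egr3, Ier2 and Gadd45b rose in both histories, and Nr4a2 and Nptx2 in the cocaine history. Their range in the cocaine history was 0.35 (Gadd45b) to 1.48 (Fos).

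Of 27 genes of the cyclic AMP, CREB and SIK pathway, 10 rose and none fell in the saline history (14.8% and 17.2% of all genes), and 13 rose and 2 fell in the cocaine history (18% and 18.9%). Atf3, a stress- and activity-induced transcription factor, had the largest difference of the list, 1.25 ± 0.15 and 1.34 ± 0.16. Crem, which encodes a repressor of CREB targets among its products, differed by 0.40 ± 0.07 and 0.58 ± 0.07. The other salt-inducible kinases rose as well, Sik2 by 0.52 ± 0.09 and 0.49 ± 0.10 and Sik3 by 0.22 ± 0.03 and 0.20 ± 0.04. Hdac4 and Hdac5, histone deacetylases that SIKs phosphorylate, rose in both histories (Hdac4 by 0.36 ± 0.07 and 0.47 ± 0.07), as did Pde10a, Atf4 and Creb1. Ep300 rose in the saline history, Pde4b, Per1, Prkar2b and Prkar1a rose in the cocaine history, and Crtc2 and Hdac7 fell there (-0.09 ± 0.03 and -0.34 ± 0.06).

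The MAP kinase cascade itself was counted on 28 genes. Of these 2 rose and 4 fell in the saline history and 5 rose and 4 fell in the cocaine history, no larger shares than those of all genes (14.8% and 17.2%, 18% and 18.9%). Rps6ka3, an ERK-activated kinase, rose by 0.20 ± 0.06 and 0.24 ± 0.06, and Map2k6, which activates p38, by 0.18 ± 0.05 and 0.20 ± 0.06. Map2k5 and Mapk7, the kinase pair of the ERK5 branch, fell in both (Mapk7 by -0.10 ± 0.04 and -0.27 ± 0.04), and so did Map2k7, with Mapk9 in the saline and Rps6ka1 in the cocaine history. Ksr1 rose in the cocaine history by 0.14 ± 0.05 and Mapk14 by 0.06 ± 0.03.

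Other feedback proteins of MAP kinase signalling were counted on a list of 22 genes, of which 21 were tested because Spry3 had no entry in the table. In the saline history 6 rose and 2 fell, where 14.8% and 17.2% of all genes did, and in the cocaine history 7 rose and 2 fell, where 18% and 18.9% did. The Sprouty and Spred proteins, which block Ras and Raf activation, gave 4 of the rises in each: Spry4 by 0.28 ± 0.07 and 0.35 ± 0.08, Spred1 by 0.27 ± 0.05 and 0.40 ± 0.06, with Spred2 and Spry2. Errfi1, an inhibitor of the EGF receptor, rose by 0.25 ± 0.07 and 0.48 ± 0.07, Dusp19 by 0.30 ± 0.05 and 0.33 ± 0.05, and Rasa1 rose in the cocaine history. Dusp9 fell by 0.32 and 0.55 on the log2 scale, Dusp22 fell in the saline and Dusp15 in the cocaine history. Among 8 polo-like kinases and partners Sipa1l1, a synaptic protein that Plk2 marks for degradation, rose in both histories (0.16 ± 0.05 and 0.17 ± 0.05), Plk5 rose in the saline and Rap1b in the cocaine history. Of 11 related GTPases and calcium channel genes 1 rose in the saline history, Cacnb1 (0.11 ± 0.04), and none in the cocaine history.

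Markers of other cells and of neuron types were counted in the same way. Of 54 marker genes tested on mouse values 5 rose and 6 fell in SS against S24 (14.8% and 17.2% of all genes), and 4 rose and 6 fell in CS against C24 (18% and 18.9%), smaller shares than over all genes. No list had a gene at 0 throughout an arm. The largest changes were in haemoglobin: Hba-a1, Hba-a2 and Hbb-bs differed by -1.24, -1.22 and -1.24 (log2) in the saline history. The summed level of 5 blood cell genes had a median of 116.5 CPM in S24 (54.63 to 515.2 over 43 libraries) and 52.56 CPM in SS (16.96 to 178 over 39), and of 154.6 CPM in C24 (63.71 to 2016 over 44) and 70.62 CPM in CS (30.23 to 305.6 over 30). Drd2 and Adora2a, of striatal projection neurons, rose by 0.68 and 0.71 in the saline history. Prox1 fell in the cocaine history (-0.52 ± 0.15, adjusted p = 0.00734). The median sum of 4 general neuron genes was 3297 to 3794 CPM over the 6 arms. The part of these differences in the members' changes was not tested.

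Cocaine history was compared with saline history at each stage, in C24 against S24 and in CS against SS. None of the 9 members passed in mouse values in either comparison (limma, 0% of all genes in each), and none of the 54 tests in single regions did (edgeR, 0.000983% and 0% of all genes), with DESeq2 also giving none. At 24 h no member had an unadjusted p under 0.05 in mouse values and 2 of 54 did in single regions, against 7.23% and 3.84% over all genes. The 95% intervals were narrow for Plk2 (-0.05, from -0.16 to 0.06) and Plk3 (0.03, from -0.07 to 0.14), and widest for Gem (0.01, from -0.24 to 0.25). After 30 d and a saline injection 1 member and 4.32% of all genes had an unadjusted p under 0.05 in mouse values. The member was Gem, at 0.43 ± 0.13 (95% interval 0.16 to 0.69, adjusted p = 0.948). Gem mice of CS ran from 0.04 to 1.03 and those of SS from -0.26 to 0.29, so that 3 of 6 CS mice were above every SS mouse, and without the CS mouse-151 the difference was 0.31. In single regions 6 of 54 tests had an unadjusted p under 0.05 (4.95% over all genes), of which Gem gave those in BLA (0.57 ± 0.24), CPu (0.74 ± 0.30) and NAc (0.69 ± 0.24, adjusted p = 0.994). The CPu value rested on the library of mouse-151 at 7.69 CPM and was 0.34 ± 0.27 without the libraries that stood apart, that one and 1 of SS in this region. Without mouse-151 the values were 0.41 in BLA and 0.51 in NAc.

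**Figure D5:**
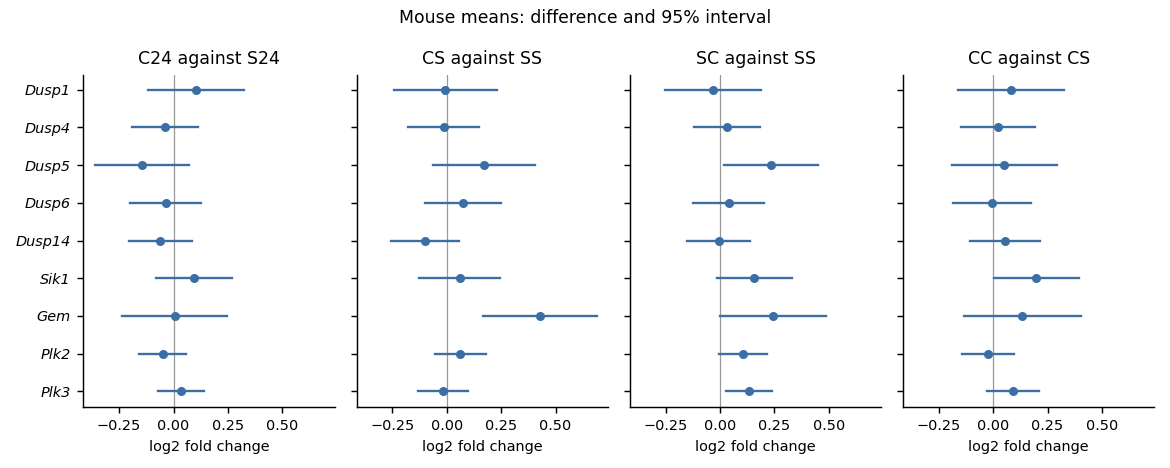
Difference in mouse values (log2) with its 95% interval for each member, for cocaine history at 24 h (C24 against S24), cocaine history at 30 d (CS against SS), and cocaine against saline injection in each history (SC against SS, CC against CS). No member passed the adjusted test, and the interval of Gem in CS against SS lies above 0, from 0.16 to 0.69.

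The cocaine injection was compared with the saline injection 1 h before tissue, within the saline history (SC against SS), within the cocaine history (CC against CS) and over both. No member passed with limma in mouse values, where 0.127%, 0% and 0% of all genes did, and none of the 54 tests in single regions passed with edgeR (0.00393%, 0% and 0% of all genes) or DESeq2. Unadjusted p-values under 0.05 were met by 3, 1 and 3 members in mouse values, where 5.07%, 2.35% and 3.72% of all genes met them, and by 4, 4 and 5 of 54 tests in single regions, where 4.2%, 2.41% and 2.4% did. Over both histories these 3 members were Sik1 (0.18 ± 0.06), Plk3 (0.11 ± 0.04) and Gem (0.19 ± 0.09), with a limma adjusted p of 1.0 for each. When all libraries were fitted with mouse as a block, Sik1 alone passed, at 0.18 with an adjusted p of 0.0205. That fit used 1 correlation between libraries of a mouse for all genes, 0.0398, where that of Sik1 was 0.435. It thus treated the Sik1 libraries of a mouse as nearly independent, and the share of all genes passing it is not reported here. The values of Sik1 in CPu ran from 32.3 to 42.9 CPM in CC (median 36.003) against 24.5 to 33.3 in CS (median 27.9), and from 26.6 to 43.8 in SC (median 29.5) against 21.4 to 30.5 in SS (median 26.2). In VTA all 5 CC libraries (18.5, 18.6, 18.8, 20.0 and 20.3 CPM) were above the 3 CS libraries (17.03, 17.8 and 18.4). Of the 54 tests of CC against CS, only this 1 had library ranges apart, and the share of all genes with such ranges was not counted. The CPu value over both histories was 0.31 ± 0.09 (adjusted p = 1.0). Dusp1 differed by 0.02 ± 0.08 over both histories (95% interval -0.14 to 0.19).

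Whether the response to the injection depended on the history was tested as an interaction. No member passed in mouse values (limma, 0.00528% of all genes) or in single regions (edgeR, 0.000983%; DESeq2 none), and none had an unadjusted p under 0.05 in either, against 3.7% and 4.35% over all genes. The interval of the interaction for Sik1 was -0.22 to 0.30 and that for Gem -0.47 to 0.25. In the test of region by comparison no member passed for history at either stage, for the injection in either history or over both, or for the interaction, 6 comparisons in which 0.0159% of all gene tests passed.

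The genes with a pattern most like each member were found over all 230 libraries, after the mean of the region was subtracted, as a description without a test, since libraries share mice and arms. Dusp1 was most like Fos (Pearson r = 0.908), Arc (0.873) and Btg2 (0.869), among 14693 genes compared. Sik1 was most like Fos (0.828), Dusp1 (0.769) and Ccn1 (0.755), and Dusp6 most like Egr2 (0.799), Arc (0.783) and Nr4a1 (0.781). Gem was most like Ccn1 (0.776), Dio2 (0.762) and Ppp1r3c (0.761), and Dusp14 most like Dnajb5 (0.725), Ier5 (0.706) and Noct (0.698). Lower values were found for Plk2 with Chn1 (0.679), Inka2 (0.676) and Mchr1 (0.658), Dusp4 with Irs2 (0.664), Lman2 (0.621) and Spry4 (0.610), Dusp5 with Ociad2 (0.651), Mpp3 (0.631) and Srxn1 (0.602), and Plk3 with Pcyt2 (0.531), Dvl1 (0.508) and Camk1 (0.480).

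Among themselves the members varied together in part. After the region mean was subtracted, the closest pairs were Dusp1 with Sik1 (r = 0.769), Dusp1 with Dusp6 (0.716) and Sik1 with Gem (0.673). When the mean of each region and arm was subtracted, so that only differences among mice of an arm were left, Dusp1 with Sik1 stood at 0.556, Dusp6 with Plk2 at 0.525 and Dusp1 with Dusp6 at 0.460. Dusp1 with Dusp4 went from 0.423 to -0.053. The deviation of a mouse in 1 region was also seen in its other regions for 2 members: over pairs of libraries of 1 mouse, the correlation was 0.460 for Dusp1 and 0.435 for Sik1, and between 0.012 and 0.155 for the other 7.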

How the data were processed

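The authors deposited whole-number read counts per Ensembl gene for 230 libraries, 1 column each. HTSeq, limma and the mm10 build are named in the submitters' processing notes, without versions; the aligner, annotation release and strand setting are not given in the sources used here. Per the labels, libraries followed ribosomal RNA depletion, although the molecule is labelled polyA RNA. Total counts ran from 11866570 to 42135683. Arms were read from the labels; the absence of an injection marks the 24 h arms. Symbols, positions and exon lengths came from a GRCm38 annotation, which matched 42462 of 43346 identifiers.

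In each region genes kept by edgeR's filter (10 reads, 15 in total) were tested with its robust quasi-likelihood F test after TMM scaling. Mouse values (log2 CPM, prior count 2, minus the region level, averaged over a mouse's regions) were tested with limma. Regional levels and region by comparison were tested with limma voom and mouse as a block (consensus correlation 0.048 and 0.0398). Benjamini-Hochberg adjustment ran over all genes of a comparison at 0.05. Deposited counts as CPM or RPKM, with TMM adjustment over all libraries, were used for levels. R 4.3.3, edgeR 4.0.16, limma 3.58.1 and DESeq2 1.42.0 were used. The edgeR fit, in PFC and VTA, and the fit of mouse values were run on simulated data for SS against S24. The fits with mouse as a block and with Prox1 as a covariate were not. The simulated counts had the same dispersion for every gene and no effect shared by libraries of a mouse. They differ from these data in that, and their outcome is not reported here.

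The number in a library's title names the mouse, which pairs libraries of different regions but not of different arms. Over 486 pairs of libraries of 1 mouse the median correlation of their deviations was 0.0867, and 225 pairs were above 0.1, against a median of -0.0117 for different mice of an arm.

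The members, pathway lists and tests were chosen with earlier results of these data known. The 9 members are always named, a gene of a pathway list where it passed a test (1 such gene is counted but not reported here), and the 3 genes most like each member among those with a mean of at least 1 CPM. The difference of stage between histories and the Prox1 covariate were added after seeing the data. Alternatives were DESeq2, limma voom, DESeq2 size factors, no filter, a prior count of 0.5, all libraries with mouse as replicate block, and leaving out each library of arms with at most 5 in a region, each mouse, the 21 libraries with Gm20594 and the libraries that stood apart. No column was left out.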

Additional observations from a re-analysis of the deposited data

Results flagged for a closer look

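In each region and arm of 4 to 8 libraries the highest or lowest library was compared with the nearest of the others. For 25 of 315 such groups (7.94%) the gap was large against the range of the group. Chance is taken to flag about 1 in 20 groups, a rate that was not tested on CPM values. The members also share the same libraries, so the 7.94% cannot be set against that rate. The library of mouse-113 from VTA, in the SC arm, stood out for 2 members, with Dusp14 at 14.82 CPM (next 5.988) and Plk2 at 67.75 CPM (next 35.2). The same library read 37.79 CPM of Drd1, where the 30 other VTA libraries read 1 to 4.036, and 165.1 CPM of the striatal gene Ppp1r1b, where they read 17.3 to 29.91. The part of these markers in the members' values was not tested.

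The SS library of mouse-011 from CPu was highest for Dusp1 at 82 CPM (next 54.44) and for Plk3 at 12.35 CPM (next 8.764), and that of mouse-011 from PFC for Sik1 at 38.25 CPM (next 31). The library of mouse-194 (C24) was highest in NAc for Dusp5 at 11.65 CPM and Dusp6 at 47.52 CPM. For Gem the CS library of CPu from mouse-151 read 7.689 CPM (next 2.699), the S24 library of PFC from mouse-182 read 2.92 CPM (next 1.556), and 2 libraries were low, CPu of mouse-191 (S24) at 0.8176 CPM and vHipp of mouse-183 (C24) at 0.491 CPM.

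Dusp14 was high in CPu of mouse-182 (S24, 145.3 CPM), PFC of mouse-195 (C24, 61.51 CPM), PFC of mouse-151 (CS, 102.6 CPM) and vHipp of mouse-072 (CS, 27.23 CPM). Dusp4 was high in CPu of mouse-205 (S24, 8.273 CPM) and vHipp of mouse-052 (SS, 31.32 CPM, next 14.88). Sik1 was high in CPu of mouse-065 (SC, 43.83 CPM) and PFC of mouse-175 (C24, 29.85 CPM). Plk2 was high in BLA of mouse-205 (S24, 197.1 CPM) and low in NAc of mouse-105 (SC, 218.1 CPM) and PFC of mouse-182 (S24, 176.3 CPM). Plk3 was high in BLA of mouse-091 (CS, 16.7 CPM), PFC of mouse-122 (SS, 22.13 CPM) and PFC of mouse-014 (CS, 19.46 CPM).

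Of the member effects compared between regions, only the change of Gem from S24 to SS passed (limma F test, adjusted p = 0.00245). The change of Gem was 1.87 in PFC and -0.29 in VTA on the log2 scale. The same test was passed by 7.64% of all genes, so a pass is not rare. For CS against C24 it gave an adjusted p of 0.484 for Gem.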

How the results depend on the processing

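Members called in SS against S24 numbered 17 to 20 of 54 in single regions and 6 of 9 in mouse values under every alternative run. In CS against C24 they numbered 21 to 25 of 54 and 7 to 9 of 9. The fit of all libraries with mouse as a replicate block gave 6 and 7 members in these 2 comparisons, and 1 for the cocaine against the saline injection, Sik1, where mouse values gave 0; the cause was not tested. No alternative for a single member turned its direction where it was called: 1240 kept their side of the threshold, 30 lost a call and 8 gained one. Besides the cases given with the results, Gem in vHipp of saline mice (adjusted p = 0.0688) and Dusp1 in PFC (0.0655), Dusp5 in CPu (0.0559), Dusp14 in NAc (0.0729) and in BLA (0.0518) of cocaine mice lost theirs without the filter on low counts. With limma voom Dusp14 lost it in NAc (0.0811) and BLA (0.0531). Plk2 in BLA of saline mice gained one without the 21 libraries (0.0453), the libraries that stood apart (0.0448) or the CS library of mouse-091 (0.0498). Gem, at about 1 CPM in BLA, CPu and vHipp of 24 h mice, rests on the fewest reads, and VTA, with 3 CS libraries, is the region where the fewest mice limit the precision.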
